A study of Homo sapiens with 9 samples.

Results

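Amino acid transporter genes of the SLC1, SLC3, SLC7, SLC36, SLC38 and SLC43 families were followed across lines derived from HCT-15, by the labels an established cell line of human colorectal adenocarcinoma. Members were all genes whose symbol begins with one of these family names followed by A and a number, with pseudogenes left out. The rule found 37 members among 36018 genes, and 25 of the 37 had enough reads to be tested. Messenger RNA was sequenced in 9 libraries, 3 each from a CoCl2-tolerant line, a low-glucose-tolerant line and the untreated control. The labels give every library a wild-type genotype and the same medium, RPMI with serum. The CoCl2-tolerant cells had been grown in increasing cobalt chloride, a salt that stabilises hypoxia-inducible factors, until they tolerated it. The low-glucose-tolerant cells had been adapted to low glucose in the same way. Each tolerance is represented by 1 derived line, and concentrations and times are not in the labels. Nothing in the labels says whether replicate libraries are separate cultures, so p-values reflect only library-to-library spread, part of which may be technical. A brefeldin A-tolerant line was not analysed here.

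SLC7 proteins of the heteromeric kind are light chains that carry amino acids, and they reach the cell surface bound to a heavy chain of the SLC3 family. With the heavy chain SLC3A2, also called CD98 or the 4F2 heavy chain, SLC7A5 exchanges large neutral amino acids and SLC7A11 exchanges cystine for glutamate. SLC1 members take up glutamate, alanine, serine, cysteine or glutamine, SLC38 members carry glutamine and other small neutral amino acids, SLC36 members are proton-coupled carriers, and SLC43 members carry large neutral amino acids or, for SLC43A3, purine bases. Cystine feeds glutathione synthesis, and leucine and glutamine are signals to the growth-regulating kinase complex mTORC1.

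Depth was 25178615 to 32674687 counts per library, and 3 counts correspond to 0.0918 to 0.119 CPM (counts per 1e6 of the scaled library total). Low-glucose-tolerant replicate 2 stood apart on the second principal component of all tested genes, at -19.9 against -0.734 and 1.59 for the other libraries of its group. Results that rest on it are given with and without it. Mitochondrially encoded genes took 4.64 to 6.67% of counts in CoCl2-tolerant, 4.74 to 5.20% in low-glucose-tolerant and 8.08 to 9.80% in control libraries. Of 13 intestinal epithelial markers with a row, 11, 11 and 9 were under 1 CPM in CoCl2-tolerant, low-glucose-tolerant and control cells. CDX2, which defines intestinal epithelium, had 0, 1 and 0 counts over those groups, while EPCAM averaged 21.8, 55.8 and 54.7 CPM. Most markers of the labelled tissue were thus low or absent in these libraries. Leukocyte markers summed to at most 5.12 CPM and endothelial markers to at most 2.06 CPM in any library. Summed fibroblast markers were 242 to 273 CPM in CoCl2-tolerant, 25.5 to 35.5 CPM in low-glucose-tolerant and 1834 to 1882 CPM in control libraries. Nearly all of it was COL1A1 in CoCl2-tolerant and control libraries, and in low-glucose-tolerant cells COL1A1 averaged 21.5 ± 1.86 CPM. The fibroblast markers DCN, LUM, COL3A1 and FAP stayed under 1 CPM. PDGFRB did not, averaging 1.68 ± 0.485 CPM in CoCl2-tolerant and 5.81 ± 0.452 CPM in control cells. Of the 7 fibroblast markers, 5, 4 and 4 were under 1 CPM in CoCl2-tolerant, low-glucose-tolerant and control cells. The part of these differences in the transporter results was not tested. In bulk RNA, fewer cells of a type and less RNA per cell cannot be told apart.

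In CoCl2-tolerant cells 12 of the 25 tested members rose, 3 fell and 10 did not pass, by edgeR's quasi-likelihood test at a Benjamini-Hochberg adjusted p under 0.05. Over all 17902 genes tested, 36.1% were called in that comparison, 17.9% higher and 18.2% lower. In low-glucose-tolerant cells 13 members rose, 7 fell and 5 did not pass, where 69.2% of all genes were called, 34.6% higher and 34.6% lower. The members' share that rose in CoCl2-tolerant cells was above that background. The 3 that fell are too few to set against it, and they include SLC3A1 and SLC7A6, whose counts are uncertain. With changes of at least 2-fold, 7 members rose and 3 fell in CoCl2-tolerant cells, against 4.59% and 6.49% of all genes, 11.1% together. At the same size, 6 rose and 4 fell in low-glucose-tolerant cells, against 15.7% and 21% of all genes, 36.7% together. Of those that fell there, SLC1A3, SLC3A1 and SLC7A7 had few reads. Among the 17 members averaging at least 5 CPM over the groups, 5 rose and 2 fell by 2-fold or more in CoCl2-tolerant cells. In low-glucose-tolerant cells 5 of them rose and 1 fell. The share of all genes at that level was not computed. Libraries of the tolerant line and the control did not overlap for 22 tested members in CoCl2-tolerant cells (57.2% of all genes) and for 21 in low-glucose-tolerant cells (73.3% of all genes). The median log2 fold change of the tested members was 0.37 in CoCl2-tolerant cells (0.01 over all genes) and 0.33 in low-glucose-tolerant cells (-0.01 over all genes).

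Members called higher in both lines were SLC1A4, SLC1A5, SLC3A2, SLC7A5, SLC7A11, SLC38A6, SLC38A7, SLC38A9 and SLC38A10, 9 in all, where 11.3% of all genes were. SLC3A1 and SLC7A6 were lower in both, where 11.5% of all genes were. The counts of both are uncertain, as given below. SLC3A1 had 22 and 15 counts in the CoCl2-tolerant and low-glucose-tolerant groups against 139 in control. It thus had enough reads to be tested mainly through the control libraries, where it was high, so its fall is not independent of that selection. SLC1A1 was called in opposite directions, as were 5.04% of all genes. Both comparisons use the same control libraries. Without control replicate 2, or without control replicate 3, 5 members were called higher in both lines. With only the 2 groups compared in the fit, SLC7A1, SLC7A7, SLC36A1 and SLC38A1 also passed in CoCl2-tolerant cells (adjusted p = 0.00652, 0.0239, 0.0171 and 0.0321).

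**Figure D1:**
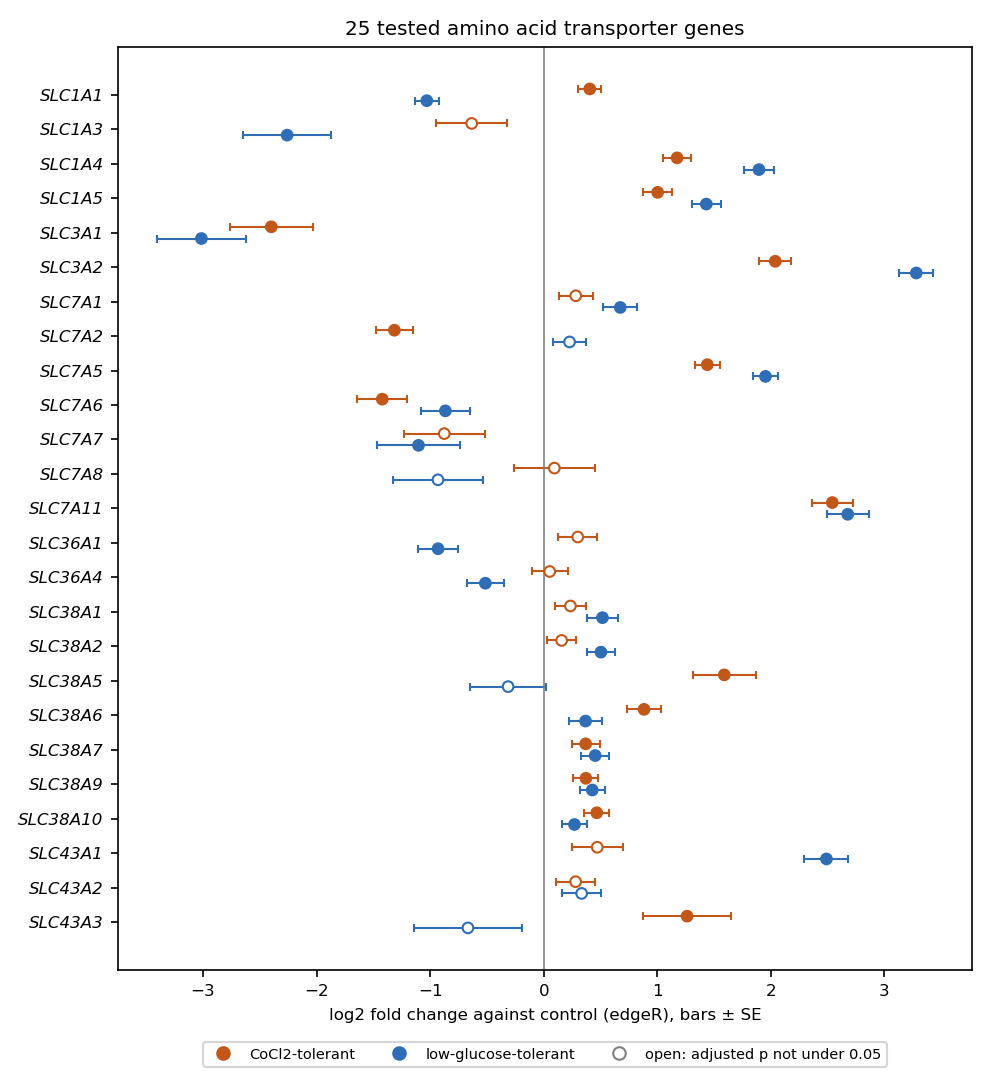
Log2 fold change against control (horizontal axis, bars ± SE) of the 25 tested members in CoCl2-tolerant (orange) and low-glucose-tolerant (blue) cells. Filled points had an adjusted p under 0.05, and SLC3A2 lies at 2.04 and 3.28 while SLC1A1 lies at 0.41 and -1.03.

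The heavy chain SLC3A2 and its light chains SLC7A5 and SLC7A11 rose in both lines. SLC3A2 (chromosome 11, 62856102 to 62888875, plus strand, GRCh38) had 246, 177 and 207 CPM in CoCl2-tolerant, 465, 439.9 and 584 CPM in low-glucose-tolerant and 48.2, 54.2 and 50.9 CPM in control libraries. The 3 groups did not overlap, with low-glucose-tolerant libraries highest and control libraries lowest. Its log2 fold change against control was 2.04 ± 0.14 (SE, adjusted p = 1.38e-07) in CoCl2-tolerant cells and 3.28 ± 0.15 (adjusted p = 2.61e-10) in low-glucose-tolerant cells. CoCl2-tolerant cells were lower than low-glucose-tolerant cells by a log2 change of -1.24 ± 0.14 (adjusted p = 2.49e-06).

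SLC7A5, the large neutral amino acid carrier LAT1 (chromosome 16, 87830023 to 87869488, minus strand), had 493, 435 and 415 CPM in CoCl2-tolerant, 577, 709 and 631 CPM in low-glucose-tolerant and 164, 165 and 166 CPM in control libraries. Here too the groups did not overlap and came in the same order. The log2 fold changes against control were 1.44 ± 0.11 (adjusted p = 3.73e-07) in CoCl2-tolerant and 1.95 ± 0.11 (adjusted p = 2.41e-09) in low-glucose-tolerant cells. CoCl2-tolerant cells were below low-glucose-tolerant cells (log2 -0.51 ± 0.11, adjusted p = 0.000899). Protein-coding genes of chromosome 16 had a median log2 fold change of 0.08 in CoCl2-tolerant and 0.62 in low-glucose-tolerant cells, and the part of that shift in the SLC7A5 result was not tested. SLC7A5 has near-identical pseudogene copies, and how reads matching several places were counted is not given.

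SLC7A11, the cystine and glutamate exchanger xCT (chromosome 4, 138164097 to 138242349, minus strand), had 86.2, 116 and 113 CPM in CoCl2-tolerant, 118, 146 and 83.1 CPM in low-glucose-tolerant and 17.9, 18.7 and 17.7 CPM in control libraries. All 6 tolerant libraries lay above the controls, and the tolerant lines overlapped each other. The log2 fold changes against control were 2.54 ± 0.18 (adjusted p = 1.82e-07) in CoCl2-tolerant and 2.68 ± 0.18 (adjusted p = 1.27e-08) in low-glucose-tolerant cells. The tolerant lines differed by a log2 change of -0.14 ± 0.17, which did not pass (adjusted p = 0.497). Its exons share 8.97% of their bases with the antisense gene SLC7A11-AS1, which had 7, 9 and 9 counts over the CoCl2-tolerant, low-glucose-tolerant and control groups.

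**Figure D2:**
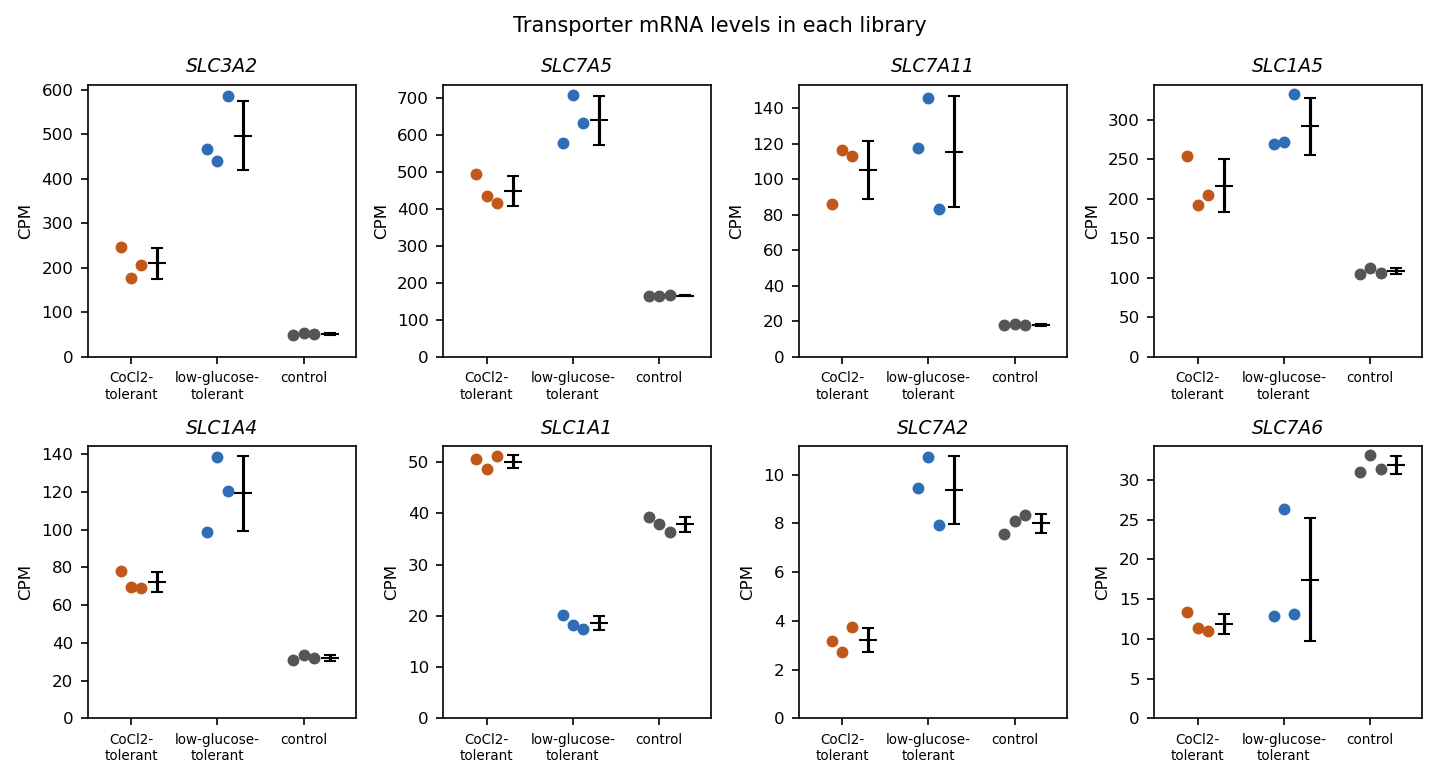
CPM per library (points) of 8 members in CoCl2-tolerant, low-glucose-tolerant and control cells, with the mean ± SD of 3 libraries. SLC3A2 averaged 210.0, 497 and 51.1 CPM and SLC7A11 105, 116 and 18.1 CPM in the groups in that order.

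Promoter windows of RefSeq (GRCh38.p14) were available for 30 members, with 52 windows of 250 bases before an annotated start. The windows were searched on both strands for an amino acid response motif (TGATGNAAN), an antioxidant response motif (TGACNNNGC) and a hypoxia response motif (NACGTGN, whose CACGTG form matches on both strands and so overlaps itself). They are printed for 3 members that rose in both lines, 5′ to 3′ on the gene's strand, with motif matches in capitals. Annotated exon bases outside a match were left out at the start end, 2 for SLC1A4 and 28 for SLC3A2. The printed stretches of SLC1A4, SLC3A2 and SLC7A5 thus end at positions -3, -29 and -1 from the start. A match is a description of the letters and not a binding site. The windows are SLC1A4 at chr2:64988229-64988476 (plus strand), SLC3A2 at chr11:62881449-62881670 (plus strand) and SLC7A5 at chr16:87869508-87869757 (minus strand).
SLC1A4: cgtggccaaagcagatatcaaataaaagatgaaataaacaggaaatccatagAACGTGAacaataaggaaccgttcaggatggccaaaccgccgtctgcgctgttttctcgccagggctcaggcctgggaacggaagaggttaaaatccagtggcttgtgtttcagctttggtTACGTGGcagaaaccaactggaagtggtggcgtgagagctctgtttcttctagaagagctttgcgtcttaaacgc
SLC3A2: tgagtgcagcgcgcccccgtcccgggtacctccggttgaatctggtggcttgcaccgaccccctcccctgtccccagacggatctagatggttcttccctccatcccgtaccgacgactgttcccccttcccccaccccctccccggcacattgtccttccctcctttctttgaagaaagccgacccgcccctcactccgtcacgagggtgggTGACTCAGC
SLC7A5: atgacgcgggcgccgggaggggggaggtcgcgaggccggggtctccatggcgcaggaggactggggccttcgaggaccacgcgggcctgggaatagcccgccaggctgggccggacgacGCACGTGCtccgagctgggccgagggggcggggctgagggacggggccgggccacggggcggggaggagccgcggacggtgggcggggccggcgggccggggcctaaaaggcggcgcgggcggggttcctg
The printed SLC3A2 window holds the antioxidant response motif, and the printed SLC1A4 and SLC7A5 windows hold the hypoxia response motif. They were chosen because they hold a match: SLC3A2 had 3 windows and SLC1A4 had 2, and their other windows held none of the motifs, while SLC7A5 had 1 window. SLC1A5, also higher in both lines, had 3 windows, not printed, that between them held all 3 motifs. SLC7A11 had no window. The amino acid response motif was in 3.85% of member windows and 3.13% of all 35116 windows. The antioxidant response motif was in 11.5% of member windows and 10.9% of all, and the hypoxia response motif in 28.8% of member windows and 18.4% of all.

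Levels of different genes were compared as CPM per kilobase of exon. SLC7A5 had the highest level of all members in each group, at 94.4 in CoCl2-tolerant, 135 in low-glucose-tolerant and 34.8 in control cells. In control cells SLC38A1, SLC1A5 and SLC38A2 were close behind, at 33.8, 32.5 and 31.0. The order there depends on the division by exon length, since by CPM alone SLC38A1 was highest (338, and 165 for SLC7A5). SLC3A2 came in position 3 in CoCl2-tolerant cells at 40.6, in position 2 in low-glucose-tolerant cells at 95.9 and in position 7 in control cells at 9.87. The ratio of SLC7A5 to SLC3A2 on this scale was 2.35 ± 0.281 in CoCl2-tolerant, 1.43 ± 0.297 in low-glucose-tolerant and 3.53 ± 0.195 in control cells (SD, n = 3 each). Both tolerant lines had less SLC7A5 mRNA per SLC3A2 mRNA, with no overlap with the controls. The ratio of SLC7A11 to SLC3A2 was 0.278 ± 0.083 in CoCl2-tolerant, 0.130 ± 0.0510 in low-glucose-tolerant and 0.190 ± 0.00769 in control cells, where the CoCl2-tolerant libraries overlapped the controls and the low-glucose-tolerant libraries lay below them. SLC7A6 to SLC3A2 gave 0.0390 in CoCl2-tolerant, 0.0250 in low-glucose-tolerant and 0.425 in control cells. The ratios are a description and were not tested. An exact permutation test on 3 against 3 libraries cannot give a p under 0.10.

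**Figure D3:**
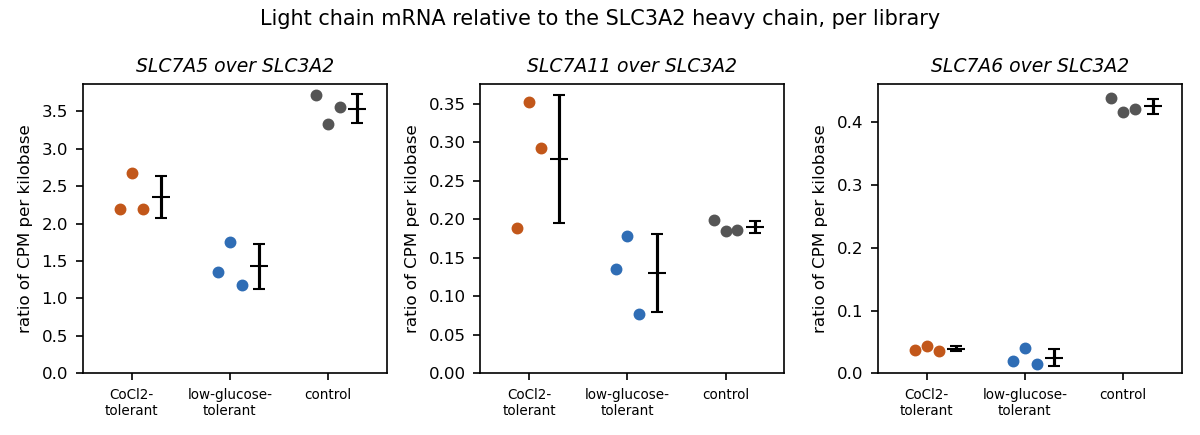
Ratio of light chain to SLC3A2 heavy chain mRNA per library (CPM per kilobase of exon over the same) for SLC7A5, SLC7A11 and SLC7A6 in CoCl2-tolerant, low-glucose-tolerant and control cells. SLC7A5 over SLC3A2 averaged 2.35, 1.43 and 3.53 in the groups in that order.

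SLC7A6, a light chain for cationic and large neutral amino acids, moved the other way. It had 13.3, 11.4 and 10.99 CPM in CoCl2-tolerant, 12.9, 26.3 and 13.2 CPM in low-glucose-tolerant and 31.0, 33.1 and 31.4 CPM in control libraries. Every tolerant library lay below the controls, and low-glucose-tolerant replicate 2 was nearest to them. The log2 fold changes were -1.42 ± 0.22 (adjusted p = 0.000208) in CoCl2-tolerant and -0.87 ± 0.21 (adjusted p = 0.00238) in low-glucose-tolerant cells, the second -1.28 without replicate 2. The call between the tolerant lines (log2 -0.56, adjusted p = 0.0388) was lost without low-glucose-tolerant replicate 2 (log2 -0.14, adjusted p = 0.308) and without CoCl2-tolerant replicate 2 or 3 (adjusted p = 0.094 and 0.108). SLC7A6 is uncertain, because 55.6% of its exon bases lie opposite other genes, mainly SLC7A6OS, and the strand setting of the counting is not given in the sources used here. SLC7A6OS itself averaged 5.74 CPM in CoCl2-tolerant, 8.73 CPM in low-glucose-tolerant and 6.27 CPM in control cells. It did not pass in CoCl2-tolerant cells (log2 -0.13, adjusted p = 0.524) and rose in low-glucose-tolerant cells (0.48, adjusted p = 0.00826).

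Among the remaining SLC3 and SLC7 members, SLC7A2, a cationic amino acid carrier for arginine and lysine, fell in CoCl2-tolerant cells and did not pass in low-glucose-tolerant cells. It had 3.17, 2.73 and 3.75 CPM in CoCl2-tolerant, 9.46, 10.7 and 7.93 CPM in low-glucose-tolerant and 7.58, 8.12 and 8.33 CPM in control libraries. All CoCl2-tolerant libraries were below the rest. The log2 fold change against control was -1.31 ± 0.16 (adjusted p = 2.68e-05) in CoCl2-tolerant and 0.23 ± 0.15 (adjusted p = 0.183) in low-glucose-tolerant cells, and the lines differed by -1.54 ± 0.16 (adjusted p = 1.3e-06).

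SLC7A1, another cationic carrier, had 214, 209 and 191 CPM in CoCl2-tolerant, 230.5, 352 and 223 CPM in low-glucose-tolerant and 162, 174 and 168 CPM in control libraries. The controls were lowest, and low-glucose-tolerant replicate 2 was far above the other libraries. It rose in low-glucose-tolerant cells (log2 0.67, adjusted p = 0.00105), also without replicate 2 (0.44, adjusted p = 0.000504). In CoCl2-tolerant cells the log2 change of 0.28 did not pass (adjusted p = 0.154), but did without low-glucose-tolerant replicate 2 in the shared fit (adjusted p = 0.0102). The call between the lines (log2 -0.39, adjusted p = 0.0325) was lost without that library (-0.16, adjusted p = 0.129) and without CoCl2-tolerant replicate 2 or 3 (adjusted p = 0.0622 and 0.108).

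SLC3A1, the heavy chain of the kidney cystine carrier, was low. It had 22 counts in CoCl2-tolerant, 15 in low-glucose-tolerant and 139 in control cells over the group, with log2 fold changes of -2.40 (adjusted p = 0.000185) and -3.01 (adjusted p = 8.73e-06). It shares 26.9% of its exon bases with genes on its own strand and 29.4% with genes opposite, so its counts are uncertain. SLC7A7, a light chain for cationic amino acids, averaged 0.459 CPM in CoCl2-tolerant, 0.396 CPM in low-glucose-tolerant and 0.854 CPM in control cells. Its call in low-glucose-tolerant cells (log2 -1.10, adjusted p = 0.0145) was lost without low-glucose-tolerant replicate 2 (-0.73, adjusted p = 0.0556) or control replicate 3 (adjusted p = 0.0516). In CoCl2-tolerant cells it did not pass (adjusted p = 0.0696), but did without low-glucose-tolerant replicate 2 (adjusted p = 0.0268). SLC7A8, a light chain for neutral amino acids, averaged 0.501 CPM in CoCl2-tolerant, 0.246 CPM in low-glucose-tolerant and 0.472 CPM in control cells and passed in neither line, with adjusted p = 0.859 in CoCl2-tolerant and 0.05002 in low-glucose-tolerant cells. It passed in low-glucose-tolerant cells without control replicate 2 (adjusted p = 0.032) or low-glucose-tolerant replicate 3 (adjusted p = 0.0226).

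In the SLC1 family the neutral amino acid exchangers rose in both lines. SLC1A5, the glutamine carrier ASCT2 (chromosome 19, 46774883 to 46788594, minus strand), had 254, 192 and 205 CPM in CoCl2-tolerant, 270.2, 272 and 334 CPM in low-glucose-tolerant and 105, 113 and 107 CPM in control libraries. The groups did not overlap, and low-glucose-tolerant libraries were highest. The log2 fold changes were 1.003 ± 0.13 (adjusted p = 3.45e-05) in CoCl2-tolerant and 1.43 ± 0.13 (adjusted p = 1.96e-07) in low-glucose-tolerant cells. Its counts carry some uncertainty, since 23.8% of its exon bases are shared with genes on the opposite strand.

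SLC1A4, the alanine, serine and cysteine carrier ASCT1 (chromosome 2, 64988477 to 65023865, plus strand), had 78.4, 69.6 and 69.0 CPM in CoCl2-tolerant, 98.9, 138 and 120.4 CPM in low-glucose-tolerant and 30.7, 33.5 and 32.0 CPM in control libraries. Again no groups overlapped. The log2 fold changes were 1.17 ± 0.13 (adjusted p = 8.32e-06) in CoCl2-tolerant and 1.90 ± 0.13 (adjusted p = 1.15e-08) in low-glucose-tolerant cells. CoCl2-tolerant cells were below low-glucose-tolerant cells for SLC1A4 (log2 -0.72, adjusted p = 0.000154) and SLC1A5 (log2 -0.43, adjusted p = 0.0078).

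SLC1A1, the glutamate and cysteine carrier EAAT3 (chromosome 9, 4490444 to 4587469, plus strand), had 50.6, 48.6 and 51.1 CPM in CoCl2-tolerant, 20.1, 18.1 and 17.4 CPM in low-glucose-tolerant and 39.2, 37.9 and 36.4 CPM in control libraries. CoCl2-tolerant libraries were highest and low-glucose-tolerant libraries lowest, with no overlap. The log2 fold change was 0.41 ± 0.10 (adjusted p = 0.0074) in CoCl2-tolerant and -1.03 ± 0.11 (adjusted p = 8.61e-07) in low-glucose-tolerant cells. Without control replicate 3 the first did not pass (log2 0.38, adjusted p = 0.0508). The direct comparison gave 1.43 ± 0.11 (adjusted p = 4.01e-08). The glutamate carrier SLC1A3 had only 30, 10 and 55 counts over CoCl2-tolerant, low-glucose-tolerant and control groups, and fell in low-glucose-tolerant cells (log2 -2.26, adjusted p = 0.000114).

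Of 7 tested SLC38 members, 5 rose in CoCl2-tolerant and 6 in low-glucose-tolerant cells, mostly by less than 2-fold, where 17.9% and 34.6% of all genes rose. The glutamine carrier SLC38A1 averaged 398 ± 38.8 CPM in CoCl2-tolerant, 484 ± 101 CPM in low-glucose-tolerant and 338 ± 11.8 CPM in control cells. It rose in low-glucose-tolerant cells (log2 0.52, adjusted p = 0.00419) and did not pass in CoCl2-tolerant cells (0.24, adjusted p = 0.202), but did when only the 2 groups compared were fitted (adjusted p = 0.0321). The related carrier SLC38A2, a neighbour on chromosome 12, averaged 228 ± 30.3, 290.3 ± 40.6 and 205 ± 4.16 CPM in CoCl2-tolerant, low-glucose-tolerant and control cells. It likewise rose in low-glucose-tolerant cells (0.50, adjusted p = 0.00259) and did not pass in CoCl2-tolerant cells (0.16, adjusted p = 0.349).

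SLC38A6 had 13.4, 15.8 and 17.2 CPM in CoCl2-tolerant, 12.3, 8.64 and 11.6 CPM in low-glucose-tolerant and 8.29, 8.62 and 8.23 CPM in control libraries. Every CoCl2-tolerant library exceeded the others, and the lowest low-glucose-tolerant library was close to the controls. The log2 fold change was 0.88 ± 0.15 (adjusted p = 0.000392) in CoCl2-tolerant and 0.37 ± 0.15 (adjusted p = 0.0386) in low-glucose-tolerant cells. The second call was lost without any 1 control library (adjusted p = 0.0931, 0.0736 and 0.0964 without replicates 1, 2 and 3) and without low-glucose-tolerant replicate 1 or 3 (0.133 and 0.0919). It was also lost with scaling by library totals, a stricter filter of 5 CPM in 3 libraries and a block for the replicate number (adjusted p = 0.138, 0.119 and 0.0565).

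The lysosomal arginine sensor SLC38A9 averaged 19.9 ± 1.19 CPM in CoCl2-tolerant, 20.7 ± 1.04 CPM in low-glucose-tolerant and 15.4 ± 0.806 CPM in control cells, with log2 changes of 0.37 (adjusted p = 0.0176) and 0.43 (adjusted p = 0.00314). The lysosomal glutamine carrier SLC38A7 averaged 55.5 ± 4.26, 58.9 ± 9.10 and 43.0 ± 1.72 CPM in the groups in that order, with changes of 0.37 (adjusted p = 0.0296) and 0.45 (adjusted p = 0.00435). SLC38A10 averaged 133 ± 11.6, 116 ± 12.7 and 95.9 ± 3.94 CPM, with changes of 0.47 (adjusted p = 0.00483) and 0.27 (adjusted p = 0.0413). These calls were small and several rested on single libraries. In CoCl2-tolerant cells SLC38A9 was lost without control replicate 2 or 3 or CoCl2-tolerant replicate 2 or 3 (adjusted p = 0.0821, 0.0835, 0.0532 and 0.0767), and with no filter (0.0521). SLC38A7 was lost there without control replicate 1, 2 or 3 or CoCl2-tolerant replicate 1 or 2 (0.09, 0.0707, 0.115, 0.0869 and 0.0546). SLC38A10 was lost in low-glucose-tolerant cells without control replicate 1, 2 or 3, CoCl2-tolerant replicate 3 or low-glucose-tolerant replicate 3 (0.133, 0.0977, 0.0698, 0.0579 and 0.128). That SLC38A10 call was also lost with library totals (log2 0.17, adjusted p = 0.153), the stricter filter (0.17, adjusted p = 0.169), the replicate block (adjusted p = 0.0651) and only the 2 groups compared (adjusted p = 0.063). The median log2 change of protein-coding genes in low-glucose-tolerant cells was -0.48 on chromosome 5, where SLC38A9 lies, and 0.62 on chromosome 16, where SLC38A7 lies.

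The members below 5 CPM in every group are outside the rule for named genes, and the following were chosen after their values were seen. SLC43A1, a large neutral amino acid carrier, had 1.04, 1.12 and 0.990 CPM in CoCl2-tolerant, 4.05, 4.29 and 4.49 CPM in low-glucose-tolerant and 0.618, 0.824 and 0.826 CPM in control libraries. The low-glucose-tolerant libraries stood clear of the rest. Its log2 fold change was 2.49 ± 0.19 (adjusted p = 5e-08) in low-glucose-tolerant and 0.47 ± 0.22 (adjusted p = 0.114) in CoCl2-tolerant cells. SLC38A5, a glutamine carrier, had 100 counts in CoCl2-tolerant, 28 in low-glucose-tolerant and 39 in control cells over the group, and rose in CoCl2-tolerant cells (log2 1.59, adjusted p = 0.0006). SLC43A3 had 84, 23 and 41 counts over the groups in that order. It was called higher in CoCl2-tolerant cells (1.26, adjusted p = 0.0202), but not without control replicate 2 or 3 or CoCl2-tolerant replicate 3 (adjusted p = 0.0693, 0.0718 and 0.112), and 29.9% of its exon bases are shared with another gene on its strand. SLC43A2 averaged 2.24, 2.32 and 1.84 CPM in CoCl2-tolerant, low-glucose-tolerant and control cells and passed in neither line.

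SLC36A1, a proton-coupled lysosomal and surface carrier, had 48.3, 45.3 and 38.3 CPM in CoCl2-tolerant, 15.2, 25.6 and 15.4 CPM in low-glucose-tolerant and 36.0, 35.5 and 35.6 CPM in control libraries. Low-glucose-tolerant libraries were lowest without overlap. It fell there (log2 -0.93 ± 0.17, adjusted p = 0.000264), on chromosome 5, whose protein-coding median was -0.48. In CoCl2-tolerant cells the change of 0.30 did not pass (adjusted p = 0.186), but did without low-glucose-tolerant replicate 2 (adjusted p = 0.0245). SLC36A4 averaged 18.7 ± 3.08 CPM in CoCl2-tolerant, 12.6 ± 2.84 CPM in low-glucose-tolerant and 18.1 ± 1.04 CPM in control cells. It fell in low-glucose-tolerant cells (log2 -0.51, adjusted p = 0.0111), a call lost without low-glucose-tolerant replicate 3 (-0.41, adjusted p = 0.052).

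**Figure D4:**
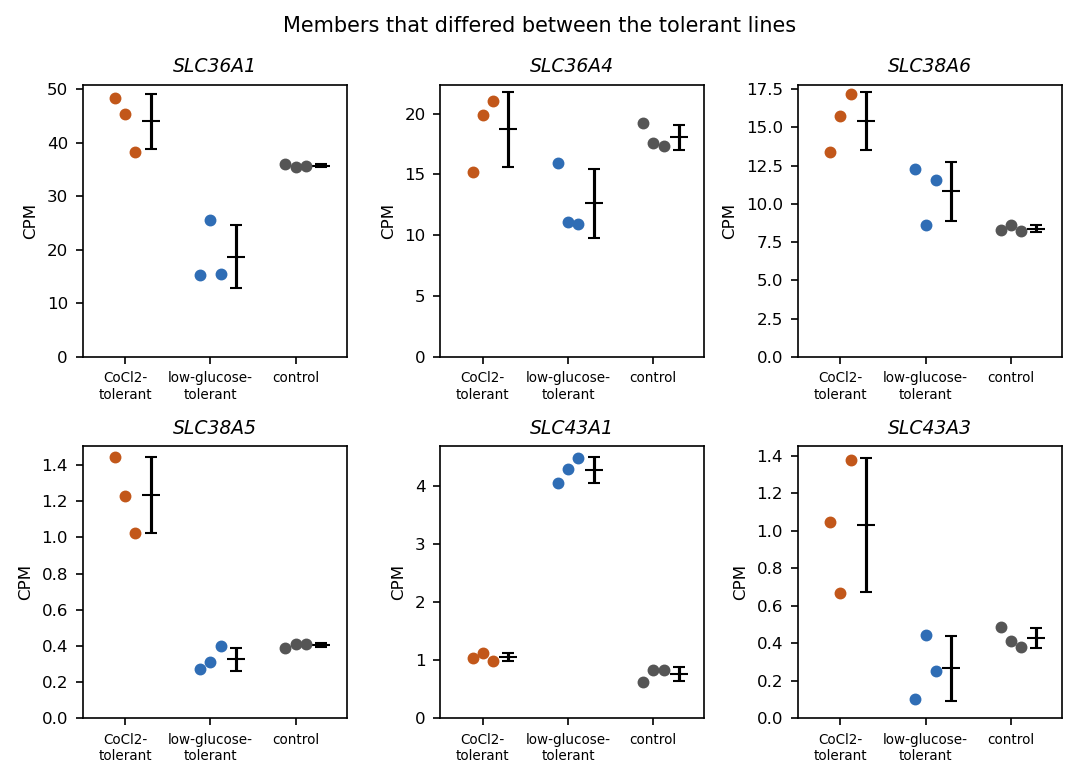
CPM per library (points) of SLC36A1, SLC36A4, SLC38A6, SLC38A5, SLC43A1 and SLC43A3 in CoCl2-tolerant, low-glucose-tolerant and control cells, with the mean ± SD of 3 libraries. SLC43A1 averaged 1.05, 4.28 and 0.756 CPM and SLC36A1 44.0, 18.7 and 35.7 CPM in the groups in that order.

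The other 12 members were too low to test, with at most 0.446 CPM in any library. They were SLC1A2, SLC1A6, SLC1A7, SLC7A4, SLC7A9, SLC7A10, SLC7A14, SLC36A2, SLC36A3, SLC38A3, SLC38A4 and SLC38A11. Among them is SLC7A9, the light chain that pairs with SLC3A1.

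Summed over all 37 members, transporter mRNA was 2243 ± 47.2 CPM in CoCl2-tolerant, 2997 ± 223 CPM in low-glucose-tolerant and 1387 ± 30.5 CPM in control cells (SD, n = 3 each). The SLC7 sum was 774 ± 38.0, 1051 ± 168 and 393 ± 7.98 CPM in CoCl2-tolerant, low-glucose-tolerant and control cells. The SLC1 sum was 339.9 ± 38.7, 430.0 ± 41.1 and 179 ± 5.05 CPM in the same order. For SLC36 the order differed, at 62.7 ± 2.95, 31.4 ± 5.26 and 53.8 ± 1.25 CPM, with low-glucose-tolerant cells lowest.

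**Figure D5:**
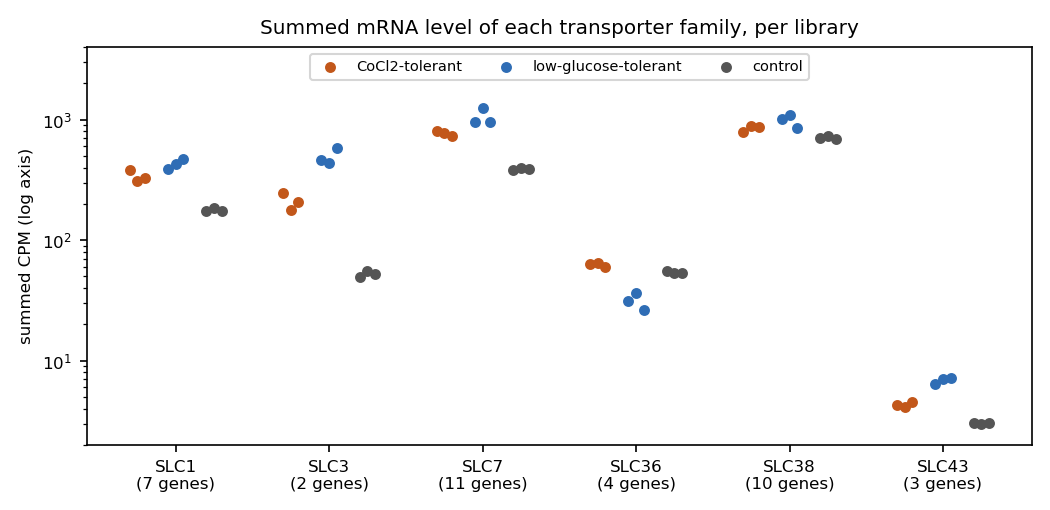
Summed CPM of each family per library (points, log axis) in CoCl2-tolerant, low-glucose-tolerant and control cells. The SLC3 sum averaged 210.3, 497 and 52.5 CPM and the SLC36 sum 62.7, 31.4 and 53.8 CPM in the groups in that order.

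Directly compared, CoCl2-tolerant cells were higher than low-glucose-tolerant cells for 8 of the 25 tested members and lower for 9, where 31.9% and 32% of all genes were, 63.9% together. The members' median was -0.06, beside 0.01 over all genes. At 2-fold or more, 6 members were higher (SLC1A1, SLC1A3, SLC7A8, SLC36A1, SLC38A5 and SLC43A3), where 18.2% of all genes were. Lower were 3 (SLC3A2, SLC7A2 and SLC43A1), where 13.2% were, 31.5% together. SLC1A3, SLC7A8, SLC38A5 and SLC43A3 had few reads, at 30, 41, 100 and 84 counts in CoCl2-tolerant and 10, 21, 28 and 23 in low-glucose-tolerant cells. Among members averaging at least 5 CPM, 2 were higher and 2 lower at that size. Here too the share of all genes at that level was not computed. The libraries of the lines did not overlap for 14 members, beside 63.1% of all genes. The SLC7A8 call (log2 1.02, adjusted p = 0.0379) was lost without control replicate 1 or 3, any 1 CoCl2-tolerant library or low-glucose-tolerant replicate 1 or 2 (adjusted p = 0.0526 to 0.123). SLC38A2 (log2 -0.35, adjusted p = 0.0265) was lost without CoCl2-tolerant replicate 1 (adjusted p = 0.106) or low-glucose-tolerant replicate 1 (0.0896). Without low-glucose-tolerant replicate 3, SLC38A1 (log2 -0.44, adjusted p = 0.00538) and SLC38A10 (0.28, adjusted p = 0.0345) also passed. SLC7A1, SLC7A6 and SLC38A2 did not pass with library totals, the stricter filter or only the 2 groups compared (adjusted p = 0.068 to 0.125), nor SLC7A8 with DESeq2, no filter or the replicate block (0.0542 to 0.0841). SLC38A10 passed with library totals (0.021) and the stricter filter (0.0374), and SLC38A1 with no filter (0.0384).

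Genes that act with these transporters were read from lists of regulators and enzymes. Of 16 tested regulators of the amino acid response, 8 rose and 3 fell in CoCl2-tolerant cells (median log2 0.42), and 11 rose and 3 fell in low-glucose-tolerant cells (median 1.02). The shares called were 68.8% and 87.5%, beside 36.1% and 69.2% of all genes in these comparisons. ATF4, the transcription factor of that response, averaged 597 ± 78.8 CPM in CoCl2-tolerant, 977 ± 166 CPM in low-glucose-tolerant and 309 ± 9.03 CPM in control cells. Its log2 fold changes were 0.95 ± 0.13 (adjusted p = 9.16e-05) and 1.66 ± 0.14 (adjusted p = 8.03e-08). TRIB3, a pseudokinase of the response, averaged 160.1 ± 16.9, 599 ± 72.0 and 43.9 ± 2.47 CPM in the groups in that order, and CEBPB, a transcription factor, averaged 24.2 ± 3.44, 98.0 ± 14.1 and 6.27 ± 0.498 CPM. DDIT3, the stress transcription factor CHOP, averaged 39.4 ± 2.69, 279 ± 69.0 and 8.12 ± 0.425 CPM, with 31.6% of its exon bases lying opposite other genes.

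Of 12 tested genes of glutathione and cystine use, 5 rose and 2 fell in CoCl2-tolerant cells (median log2 0.17), and 8 rose and 2 fell in low-glucose-tolerant cells (median 0.81). That is 58.3% and 83.3% called, beside 36.1% and 69.2% of all genes. CHAC1, which degrades glutathione, averaged 42.9 ± 6.86 CPM in CoCl2-tolerant, 40.7 ± 7.22 CPM in low-glucose-tolerant and 5.81 ± 0.562 CPM in control cells. GCLM, a subunit of the enzyme that starts glutathione synthesis, averaged 160.2 ± 33.4, 128 ± 17.3 and 48.2 ± 0.450 CPM in that order. TXNRD1, thioredoxin reductase, averaged 1398 ± 48.1, 1802 ± 183 and 442 ± 11.03 CPM.

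For 12 tested enzymes of glutamine and glutamate, 4 rose and 1 fell in CoCl2-tolerant cells (median log2 0.10), and 7 rose and 4 fell in low-glucose-tolerant cells (median 0.79). Called were thus 41.7% and 91.7%, beside 36.1% and 69.2% of all genes. GPT2, a mitochondrial alanine aminotransferase, averaged 71.7 ± 5.74 CPM in CoCl2-tolerant, 71.0 ± 3.63 CPM in low-glucose-tolerant and 21.9 ± 1.97 CPM in control cells. PSAT1 of serine synthesis averaged 447 ± 29.5, 346 ± 28.6 and 211 ± 11.1 CPM in that order. GLUL, glutamine synthetase, averaged 86.4 ± 2.16, 86.8 ± 7.01 and 170.3 ± 3.77 CPM, and GOT1, aspartate aminotransferase, 98.6 ± 9.09, 272 ± 30.8 and 65.6 ± 0.809 CPM. Each of these genes was called in both lines, GLUL lower and the others higher. GLS2 and ASNS also rose in low-glucose-tolerant cells (log2 2.48 and 2.05), but 77.1% and 44.6% of their exon bases overlap other genes. In CoCl2-tolerant cells ASNS rose (0.74, adjusted p = 0.00956) and GLS2 did not pass (0.78, adjusted p = 0.145).

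Of 30 tested genes of amino acid sensing at the lysosome and mTORC1, 10 rose and 2 fell in CoCl2-tolerant cells (median log2 0.16), and 14 rose and 6 fell in low-glucose-tolerant cells (median 0.34). These shares, 40% and 66.7%, were near the 36.1% and 69.2% of all genes called. The Rag GTPase genes RRAGA, RRAGD and RRAGC rose in CoCl2-tolerant cells by log2 1.51, 1.45 and 1.07. The related RRAGB did not pass there (0.27, adjusted p = 0.128). RRAGA and RRAGD did not pass in low-glucose-tolerant cells (0.16 and 0.03, adjusted p = 0.253 and 0.839). SESN2, a leucine sensor, averaged 134 ± 3.61 CPM in CoCl2-tolerant, 404 ± 25.4 CPM in low-glucose-tolerant and 69.1 ± 0.985 CPM in control cells. It was called higher in both lines. In low-glucose-tolerant cells RRAGC rose by 2.17, and the arginine sensor homologue CASTOR2 fell (log2 -2.01). For RRAGC 22.9% of the exon bases are shared on its strand, so its changes in both lines carry some uncertainty.

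Among 20 tested amino acid transporters of other families, 8 rose and 2 fell in CoCl2-tolerant cells (median log2 0.16), and 12 rose and 3 fell in low-glucose-tolerant cells (median 0.54). This makes 50% and 75% called, beside 36.1% and 69.2% of all genes. SLC6A9, a glycine carrier, averaged 14.4 ± 2.79 CPM in CoCl2-tolerant, 32.7 ± 5.54 CPM in low-glucose-tolerant and 4.43 ± 0.596 CPM in control cells. The peptide and histidine carrier SLC15A4 and the creatine carrier SLC6A8 rose in CoCl2-tolerant cells (log2 1.08 and 0.94). Both rose less in low-glucose-tolerant cells (0.56 and 0.56, adjusted p = 0.00014 and 0.000221). The mitochondrial glycine carrier SLC25A38 rose in low-glucose-tolerant cells (1.92) and in CoCl2-tolerant cells (0.62, adjusted p = 0.0014). The taurine carrier SLC6A6 fell in low-glucose-tolerant cells (-1.91) and did not pass in CoCl2-tolerant cells (0.01, adjusted p = 0.958). Of 11 tested regulators and partners of transporter proteins, 2 rose and 1 fell in CoCl2-tolerant cells. In low-glucose-tolerant cells 5 of them rose and 2 fell. The shares called, 27.3% and 63.6%, were not far from the 36.1% and 69.2% of all genes for so short a list. CD44, a surface protein that binds SLC7A11, averaged 516 ± 27.9 CPM in CoCl2-tolerant, 1125 ± 47.9 CPM in low-glucose-tolerant and 222 ± 3.37 CPM in control cells. ARRDC3, an arrestin-domain adaptor, averaged 338 ± 50.7, 65.2 ± 16.7 and 121 ± 3.23 CPM in that order. XK fell in CoCl2-tolerant cells (-1.08) and COLEC12 in low-glucose-tolerant cells (-1.09), both at low levels. XK averaged 0.777 CPM in CoCl2-tolerant and 1.65 CPM in control cells, and COLEC12 0.763 CPM in low-glucose-tolerant and 1.63 CPM in control cells.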

How the data were processed

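The deposited values are raw read counts per gene and library, and the submitters' processing notes name featureCounts, GRCh38 and DESeq2. Strand setting, aligner and annotation release: not given in the sources used here. Gene models came from GENCODE release 29. Counts were fitted with edgeR 4.0.16 in R 4.3.3: filterByExpr by group (17902 genes), TMM scaling (factors 0.922 to 1.04), and a quasi-likelihood F test over all 9 libraries with 1 mean per group. The common biological coefficient of variation was 12.6%. P-values were adjusted by Benjamini-Hochberg over all genes in each comparison and called under 0.05. CPM used the library total times its TMM factor. Totals were 25178615 to 32674687 counts, and counting precision follows from them. Members and lists were chosen with earlier results of these data known.

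SLC7A11, SLC7A5 and SLC3A2 were described whatever their values, with members called at 2-fold or more and at least 5 CPM in the higher group against control. Up to 3 called genes with the largest changes and at least 1 CPM were named per list and comparison, and ATF4 always. No replicate pair agreed within counting error (chi-squared per degree of freedom 2.18 to 66.7). The procedure was tested on simulated data, where far fewer genes were changed than were called here and none of them had few reads. That test does not cover so large a share of changed genes or the lowest members. Alternatives left out each library in turn, added a replicate block, fitted only the 2 groups compared, required 5 CPM in 3 libraries (the stricter filter) or no minimum (no filter), scaled by library totals or by DESeq2 size factors, and used the Wald test of DESeq2 1.42.0. Figures were drawn with matplotlib 3.10.9, and pandas 2.3.3 on Python 3.11.15 made the tables.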

Additional observations from a re-analysis of the deposited data

Results flagged for a closer look

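For 5 members the fitted changes of the tolerant lines against control had opposite signs, and the direct comparison of CoCl2-tolerant with low-glucose-tolerant cells was called at 2-fold or more by edgeR, with at least 1 of the changes against control called as well. The log2 fold changes in that comparison were 1.43 for SLC1A1, -1.54 for SLC7A2, 1.23 for SLC36A1, 1.90 for SLC38A5 and 1.93 for SLC43A3. Of these, SLC1A1 passed against control in both lines. SLC7A8 (1.02) had opposite signs too, but passed against control in neither line. Groups of 3 libraries were not tested for single outlying values.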

How the results depend on the processing

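Of 75 member results, 49 kept their direction and call under every setting, 12 lost a call, 7 gained one and 7 changed sign. With the stricter filter, 4 members fell in low-glucose-tolerant cells, 5 were higher and 5 lower in the direct comparison, and 1 was lower in both lines, where fewer members were tested (17). Fitting only the 2 groups compared gave 2 members called in opposite directions. With a library left out, 5 to 10 members were higher in both lines and 0 to 2 were called in opposite directions, 0 of them without control replicate 3 by edgeR, where 1 had an unadjusted p under 0.05 and DESeq2 on all libraries called 1. Genes called ranged over 4463 to 7965 in CoCl2-tolerant cells, 11373 to 12903 in low-glucose-tolerant cells and 10476 to 11836 directly. Members called higher and lower were 8 to 14 and 3 to 4, 11 to 13 and 6 to 8, and 7 to 9 and 7 to 10. None of the sign changes was of a called value. Against control in CoCl2-tolerant cells, SLC7A8 ranged from -0.13 (without control replicate 2) to 0.22 and SLC36A4 from -0.0386 (without CoCl2-tolerant replicate 3) to 0.19 over the libraries left out. Directly, SLC7A7 ranged from -0.14 to 0.45, SLC7A11 from -0.33 to 0.0587 and SLC38A7 from -0.20 to 0.0244, with the changed sign without low-glucose-tolerant replicate 2. Library totals gave 0.0076 for SLC38A7, 0.0367 for SLC38A9 and 0.0408 for SLC43A2, and the stricter filter 0.000376 for SLC38A7 and 0.0283 for SLC38A9. The cause was not tested. Library totals moved the median of all genes by -0.10 in low-glucose-tolerant cells. The replicate block called 6091, 12118 and 11135 genes and 12 and 3, 11 and 7, and 7 and 9 members higher and lower in the 3 comparisons. Same-numbered libraries of different groups had residual correlations of -0.260 to 0.124, and differently numbered ones -0.242 to 0.205, so no pairing was assumed. Depth limits the lowest members, for which 3 counts are 0.0918 to 0.119 CPM.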
